A study of Mus musculus with 20 samples.

Results

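The miR-467 and miR-669 families are groups of mouse microRNAs (miRNAs) with closely related, repeat-rich sequences, and their members were followed here in hearts under pressure overload. Members were all mouse probes of the array whose name starts with miR-467 or miR-669, whatever the letter or strand. Of 39 such probes, 1 (miR-669k) carried a negative quality flag on every spot of every array and was dropped, which left 38 members, 13 of miR-467 and 25 of miR-669, among 928 mouse probes. A probe that names several miRNAs counted once, as 3 members do, and a probe listed as miR-466m-5p first and miR-669m-5p second did not count.

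Adult male C57BL/6J mice, 8 weeks old, had transverse aortic banding (TAB), which narrows the aorta and loads the left ventricle, or a sham operation. Left ventricle RNA of both operations was taken on days 3, 5, 7, 14 and 28 and hybridized to 1-colour arrays, 2 arrays to each pairing of surgery with day, or 20 in all. Repeated arrays are technical replicates by the study's methods, and how many hearts a sample pools is not labelled, so each surgery and day counted as 1 sample here. The TAB arrays titled day 14 carry 15 days in another label, and the title was used. The labels name no transgene or deletion in any group.

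Most genes of both families lie in tandem repeats inside an intron of Sfmbt2, an imprinted gene expressed from the paternal copy and best known in placenta and embryonic stem cells, and the cluster is specific to rodents. Each hairpin precursor can give a strand from either side. The annotation of the array's time marks the strand held to be less abundant with a star, or names strands by their 5p or 3p side. In mouse postnatal cardiac progenitors, miR-669a and miR-669q are known to restrain the skeletal muscle program. In mouse macrophages miR-467b is known to act on lipoprotein lipase. Whole ventricle RNA mixes heart muscle with vessels, connective tissue and blood, so that fewer cells of a type and less RNA per cell cannot be told apart.

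The mouse annotation of RefSeq places 43 of 47 hairpin genes of the families within Sfmbt2 on chromosome 2, with 10 hairpins named for miR-467a and 12 for miR-669a, and the other 4 on chromosomes 3, 5, 9 and 11. By name, 34 members belong to the Sfmbt2 cluster. Mature sequences from RefSeq (build GRCm38.p6) matched 4 members by name, and these are the 4 outside Sfmbt2. They are shown because they fall into 2 kinds with different values, one built of GU repeats and one of CA repeats. Capitals mark the seed, bases 2 to 8 from the 5′ end, which pairs with target RNAs.
miR-467h, chr9:115381898-115381919 on the plus strand: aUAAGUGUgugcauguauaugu
miR-669n, chr3:115979905-115979924 on the plus strand: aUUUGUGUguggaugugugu
miR-467f, chr11:69635419-69635439 on the minus strand: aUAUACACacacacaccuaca
miR-467g, chr5:34732872-34732892 on the minus strand: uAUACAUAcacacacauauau

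No 2 of these share a seed. miR-467h holds 6 guanines and miR-669n 8, while miR-467f and miR-467g hold 0. The label was attached by a ULS kit, whose dye binds mainly to guanine. The sequences of the array's probes were not used here. Members with near-identical sequences may share signal on an array, so that their values are not independent measurements.

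A probe was called found on an array when 2 or 3 of its 3 spots were free of negative flags. Of the 38 members, 22 were found on all 20 arrays, 9 on 10 to 19, 7 on fewer than 10, and 4 of these on none (miR-467a, miR-467d, miR-669g and miR-669j). The number of members found ran from 24 to 31 over the TAB arrays and from 29 to 34 over the sham arrays. TAB arrays were dimmer as a whole. Their 75th percentile of raw intensity over mouse probes lay between 180.0 and 288 against 303 to 444 on sham arrays, without overlap, and the 5 spike-in controls were lower by 0.22 to 0.71 log2 units on TAB arrays before scaling. Quantile normalization across the 20 arrays removed this gap, and the part that array brightness has in the results was not tested. The heart muscle miRNAs miR-1a, miR-133a and miR-133b were found on every array at mean log2 signals of 13.88 or more. The 6 heart muscle markers summed to 15.73 to 16.45 in sham and 15.69 to 16.32 in TAB, with 2 raised. The white blood cell markers summed to 8.93 to 9.32 in sham and 9.39 to 9.83 in TAB, with 3 of 4 raised. The red blood cell markers summed to 7.64 to 8.07 in sham and 8.25 to 8.97 in TAB, with both raised, and the endothelial markers summed to 11.60 to 12.38 and 12.20 to 12.96, with 1 of 2 raised. The liver miRNA miR-122 ranged from 6.67 to 8.47 in sham and from 6.35 to 6.79 in TAB, where it was found on 3 of 10 arrays. These markers' part in the results was not tested.

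The first comparison asked which members differed between pressure-overloaded and sham hearts over the whole time course. Over the 5 days, 13 of 38 members (34.2%) were lower in TAB hearts and 1 was higher, against 21.8% of all 928 mouse probes lowered and 19.3% raised (limma on the 10 samples with day as a block, Benjamini-Hochberg adjusted over all probes). The median TAB minus sham difference was -0.23 log2 units over the members and -0.015 over all probes. The lowered members formed a distinct group. All 12 that were found on every array differed by -0.72 to -1.02 log2 units, about a 1.64-fold to 2.02-fold lower signal. The most negative of the other members was at -0.35. The group held miR-669a-5p/miR-669p, miR-669b, miR-669c, miR-669d, miR-669e, miR-669f-5p, miR-669k*, miR-669l, miR-669n, miR-669o-5p, miR-467c and miR-467h. In 10 members every TAB sample lay below every sham sample, as for 16.2% of all probes, and in 1 every TAB sample lay above, as for 15.9%.

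**Figure D1:**
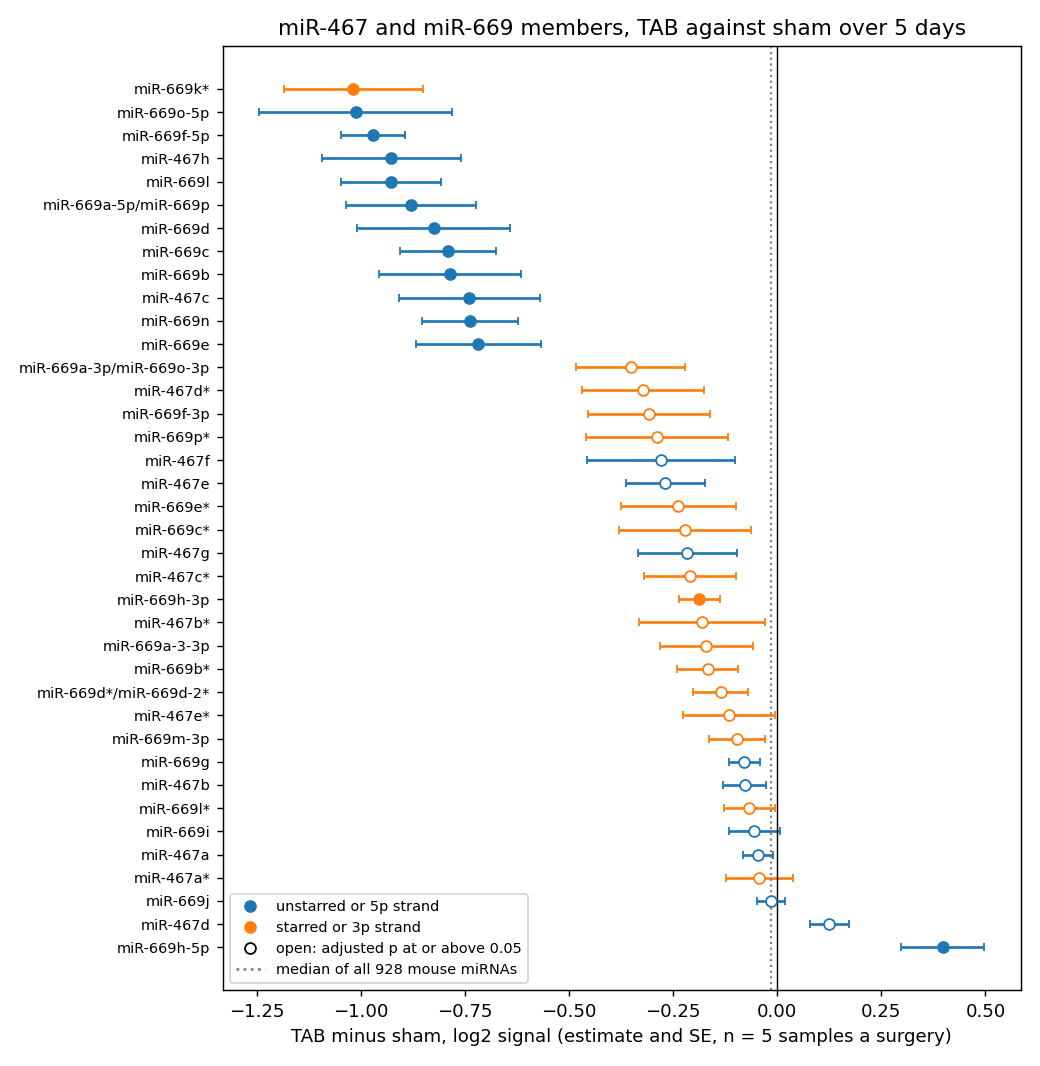
TAB minus sham difference of each of the 38 members in log2 signal, with its SE, over 5 samples a surgery. Filled points passed an adjusted p of 0.05, blue marks the unstarred or 5p strand and orange the starred or 3p strand, and the dotted line is the median of all 928 mouse probes. A gap separates the 12 members at -0.72 or lower from the rest.

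Among the 4 sequenced members, the GU-rich pair fell and the CA-rich pair did not pass the test. The log2 signal of miR-467h was 8.996, 8.75, 9.18, 8.29 and 8.78 in the sham samples of days 3, 5, 7, 14 and 28 and 7.81, 7.66, 7.97, 8.15 and 7.78 in the TAB samples of the same days. The groups did not overlap, and the day 14 samples were the closest. The difference was -0.93 ± 0.17 (SE, n = 5 samples a surgery, adjusted p = 0.00939, limma), a 1.90-fold lower signal. For miR-669n, the sham samples gave 10.43, 10.16, 10.34, 10.13 and 10.002 and the TAB samples 9.43, 9.77, 9.33, 9.69 and 9.16. Every TAB sample again lay below every sham sample, by -0.74 ± 0.12 on average (adjusted p = 0.00590). The CA-rich miR-467f gave 9.12, 8.61, 8.69, 8.10 and 8.61 in sham and 8.23, 8.59, 8.39, 8.45 and 8.06 in TAB. Its groups overlapped, with the lowest sham sample on day 14, and the difference of -0.28 ± 0.18 did not pass the test (adjusted p = 0.255). miR-467g gave 7.66, 7.26, 7.06, 6.88 and 7.14 in sham and 6.92, 7.09, 7.01, 6.95 and 6.96 in TAB, a difference of -0.22 ± 0.12 (adjusted p = 0.196) with its widest gap on day 3. Without scaling the CA-rich pair did pass, at -0.95 and -0.59 (adjusted p = 0.0128 and 0.0233), as 53.9% of all probes were lowered. It also passed with arrays quantile-normalized within each surgery, where 68.3% of all probes were lowered. On day 3 alone miR-467f and miR-467g were called lower, at -0.88 and -0.75.

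The same contrast of repeats was looked for among other miRNAs, a description whose motifs were picked after these values were known. Of the tested probes, 277 had a RefSeq mature sequence under the same name. A run of UGUGUG or GUGUGU on the mature strand, 2 motifs that overlap each other, was in 10 of them. Without miR-467h and miR-669n, 6 of 8 were lowered, with a median difference of -0.94. Over the 1679 mature sequences of the table, 1.91% hold such a run. A run of CACACA or ACACAC was in 9 (1.01% of the table). Without miR-467f and miR-467g, 2 of 7 were lowered and 1 raised, with a median of -0.16. With neither run there were 258, of which 66 were lowered (25.6%). Outside the families, 6 GU-rich miRNAs were found on all 20 arrays, and all 6 fell by 0.69 to 1.04 log2 units, while 41 of 110 miRNAs with neither run and found on all arrays were lowered (37.3%). The 6 are miR-466j, miR-466k, miR-574-5p, miR-1187, miR-3082-5p and miR-3097-5p. The 2 GU-rich miRNAs that were not called, miR-539-5p and miR-291a-3p, were found on 1 array and on 0. The strands of miR-574 are shown because 1 is GU-rich and the other CA-rich, both from 1 hairpin.
miR-574-5p, chr5:64970328-64970350 on the plus strand: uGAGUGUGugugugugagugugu
miR-574-3p, chr5:64970364-64970385 on the plus strand: cACGCUCAugcacacacccaca

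The 5p strand of miR-574 differed by -0.96 ± 0.15 (adjusted p = 0.00588) and the 3p strand by -0.44 ± 0.12 (adjusted p = 0.0287), so that both were lowered. Across the 277 matched miRNAs the number of guanines was nearly unrelated to the difference (Pearson's r = -0.08, across miRNAs that share the arrays and are not independent). The difference between GU-rich and CA-rich miRNAs, and the part that sequence or label has in it, were not tested.

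By strand, 11 of the 13 lowered members were unstarred or 5p and 2 starred or 3p. Of 14 unstarred or 5p members found on all 20 arrays (miR-467f, miR-467g, miR-467h and miR-669n included), 11 were lowered and 1 raised, with a median of -0.79. Of all 436 mouse probes found on all 20 arrays, 129 were lowered (29.6%) and 120 raised. Of 8 starred or 3p members found on all 20 arrays, 1 was lowered, with a median of -0.30. Without that filter, 2 of 17 starred or 3p members were lowered (11.8%), with a median of -0.19. Among all 374 starred or 3p mouse probes, also without the filter, 67 were lowered (17.9%) and the median was -0.02. The 1 starred member lowered was miR-669k*, whose opposite strand is the dropped miR-669k. In the sham samples miR-669k* read 10.01, 10.11, 10.31, 9.56 and 9.98 and in the TAB samples 9.08, 8.72, 9.003, 9.28 and 8.80. The samples did not overlap, and the difference was -1.02 ± 0.17 (adjusted p = 0.00728), a 2.02-fold lower signal and the most negative of all members.

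miR-669l had the brightest spots of the members. Its log2 signal was 11.14, 11.44, 11.30, 10.84 and 10.93 in sham and 10.26, 10.13, 10.18, 10.36 and 10.08 in TAB. Unscaled, the sample means were 2223 to 3077 intensity units in sham and 668 to 1350.5 in TAB. On either scale the groups stayed apart, and the difference was -0.93 ± 0.12 (adjusted p = 0.00383). miR-669f-5p followed at 10.65, 10.47, 10.78, 10.32 and 10.33 in sham and 9.66, 9.41, 9.57, 9.63 and 9.43 in TAB. Its TAB samples spread by only 0.12 (SD), and the difference of -0.97 ± 0.08 had the smallest p of the members (adjusted p = 0.00116).

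miR-669o-5p varied more between days. It gave 9.75, 10.13, 10.26, 9.33 and 9.80 in sham and 9.06, 8.52, 8.74, 9.22 and 8.66 in TAB, with an average difference of -1.01 ± 0.23 (adjusted p = 0.0181). On day 14 its samples nearly met, and without day 5, day 7 or day 28 it no longer passed the test, with an adjusted p of 0.0542, 0.0604 and 0.0605. The probe shared by miR-669a-5p and miR-669p, the first of which restrains the skeletal muscle program in cardiac progenitors, gave 9.15, 8.88, 9.34, 8.73 and 8.94 in sham and 7.92, 8.05, 8.12, 8.52 and 8.05 in TAB. It was lower on every day, by -0.88 ± 0.16 (adjusted p = 0.00905). miR-669c gave 9.68, 9.48, 9.90, 9.78 and 9.43 in sham and 8.85, 9.09, 8.68, 9.07 and 8.64 in TAB. Its day 14 difference, -0.71, was the most negative of the members on that day, and the 5-day difference was -0.79 ± 0.11 (adjusted p = 0.00498).

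The remaining lowered members were miR-669d, miR-669b, miR-467c and miR-669e, with differences of -0.83 ± 0.18, -0.79 ± 0.17, -0.74 ± 0.17 and -0.72 ± 0.15 and adjusted p of 0.0144 to 0.0181. miR-669e was lower on all 5 days, and the first 3 were lower on 4 days and higher by at most 0.03 on day 14, so that their groups overlapped. miR-669h-3p differed by -0.19 ± 0.05 (adjusted p = 0.0287), a direction that turned to 0.28 with the 75th percentile and in the processed table and to 0.13 with the spike-in controls. It was found on all 10 sham arrays and on 0 of 10 TAB arrays, where its signal is only a bound. After quantile normalization, and not under those 3 scalings, the signal in sham was at least 1.08-fold higher. The bound sets the mean of the bright group against the higher, on each array, of the dim signal and the lowest signal found. miR-467b was found on 7 of 10 arrays in sham and 0 in TAB, and did not pass the test. After quantile normalization the same ratio was 1.05-fold higher in sham. Its sham mean includes arrays where the probe was not found, so this ratio is not a strict bound. The direction turned with the 75th percentile, the processed table and the spike-in controls.

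**Figure D2:**
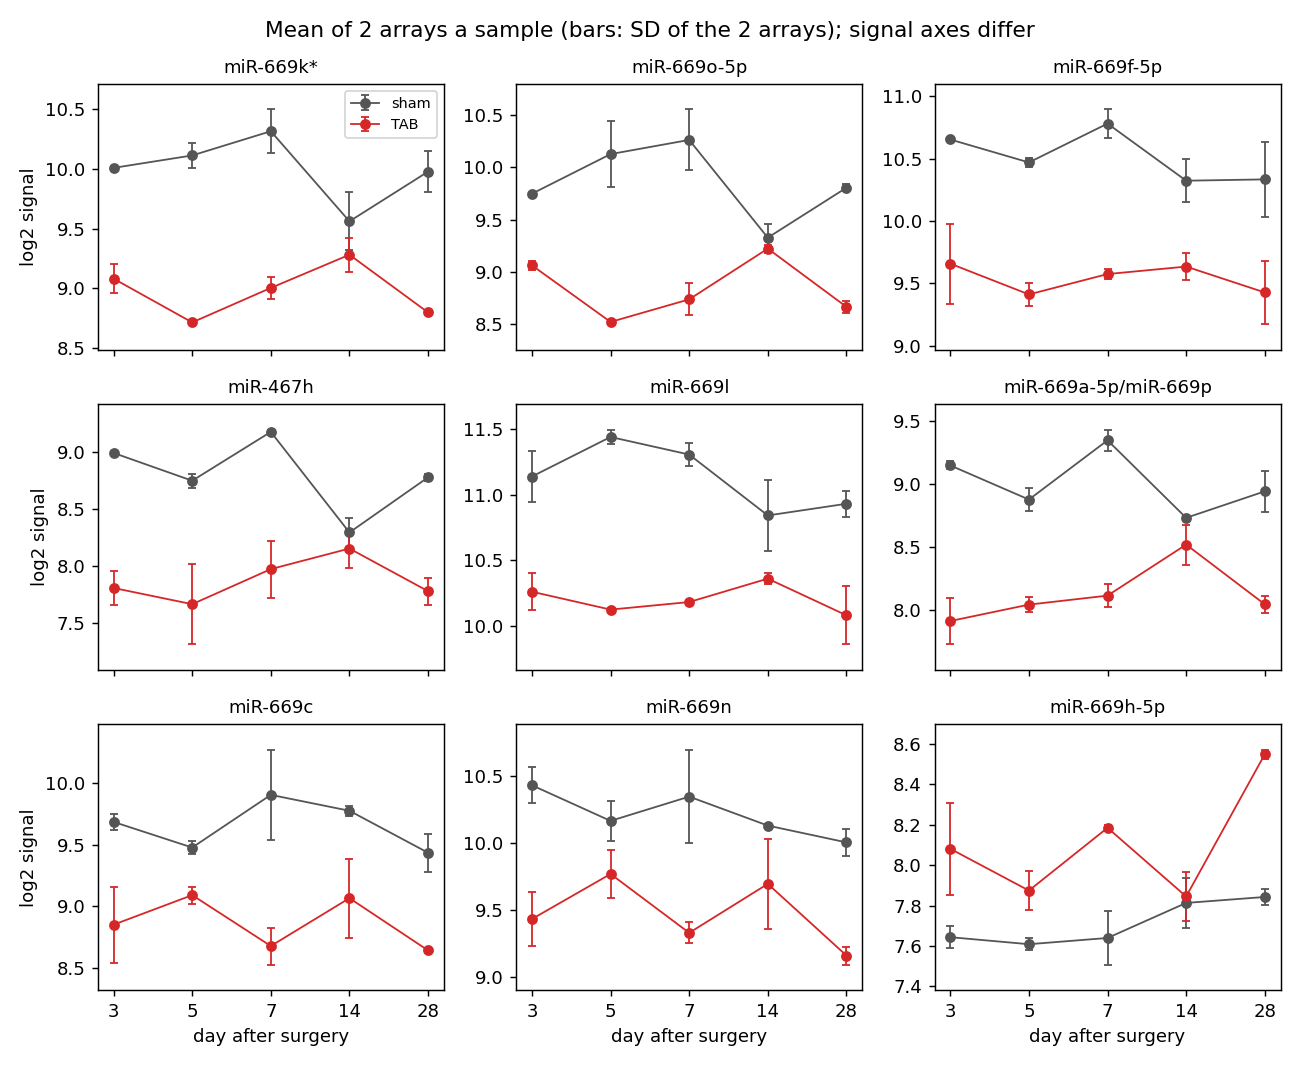
Log2 signal (vertical axis, a different range in each panel) by day after surgery for 8 lowered members and miR-669h-5p, with sham in grey and TAB in red. Points are the mean of 2 arrays and bars their SD. In all the lowered members shown but miR-669c and miR-669n, the groups come closest together on day 14.

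One member passed the test upward. miR-669h-5p, the only member higher in every TAB sample than in every sham sample, gave 7.64, 7.61, 7.64, 7.81 and 7.84 in sham and 8.08, 7.87, 8.18, 7.84 and 8.55 in TAB. The difference was 0.40 ± 0.10 (adjusted p = 0.0255), a 1.32-fold higher signal, and the samples of day 14 differed by 0.03. It no longer passed the test without day 3, 5, 7 or 28 (adjusted p of 0.0523 to 0.0839) or without replicate 1 (0.0554). The direction depended on the scaling. Without scaling and with a quantile target for each surgery it was -0.14 and -0.13, and scaled to spike-in controls it was 0.35 and did not pass the test (adjusted p = 0.206). Relative to the median of all probes it was higher under every scaling.

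The count of raised members moved with the scaling, and the calls of the 12 lowered ones did not. Scaled to the 75th percentile, 12 members were lowered and 11 raised, while 11.9% of all probes were lowered and 63.9% raised. In the processed table, whose arrays share a 75th percentile, the counts were 13 and 12, against 12.2% and 63.8% of all probes. Without scaling 33 members were lowered and 0 raised, and with a quantile target for each surgery 36 and 0, against 53.9% and 68.3% of all probes lowered. The median of all probes moved from -0.015 to 0.40 with the 75th percentile and to -0.25 without scaling. Against that median, the median member stood at -0.21 after quantile normalization and at -0.40 under both of these. The 12 members at -0.72 or lower passed the test under every scaling, at -1.04 to -1.52 relative to the median of all probes with the 75th percentile, and in each scaling the other 26 were all above them.

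**Figure D3:**
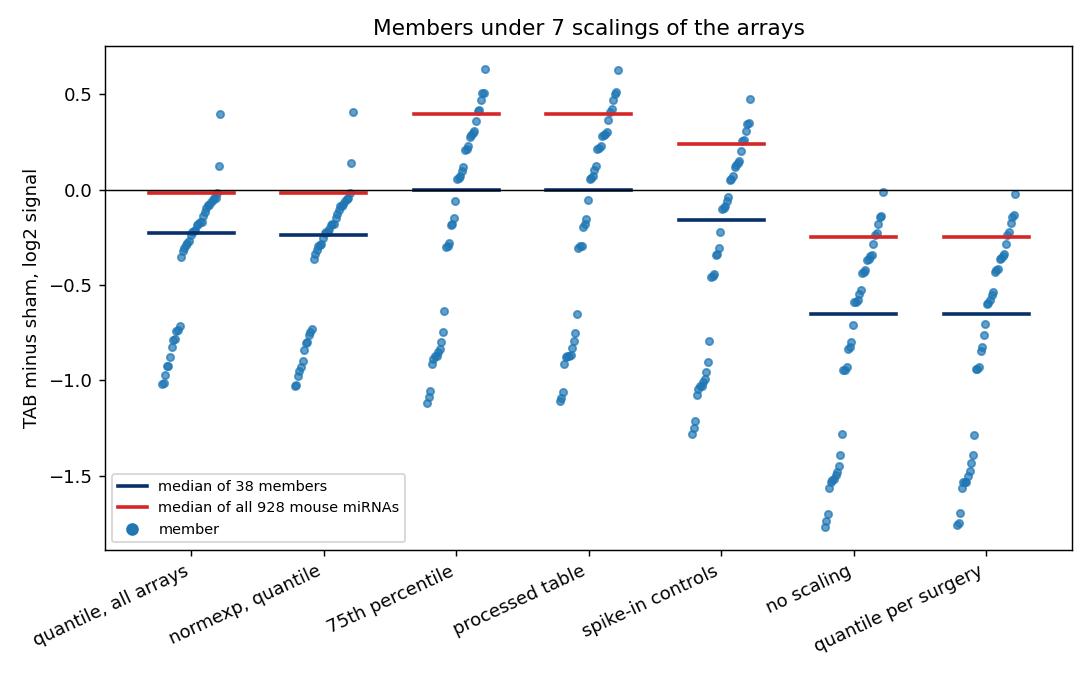
TAB minus sham difference in log2 signal (vertical axis) of the 38 members under 7 ways of scaling the arrays (horizontal axis), each point 1 member. Dark blue bars are the median of the members and red bars the median of all 928 mouse probes. The median of all probes moves with the scaling, and the 12 most negative members stay below all others.

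Both strands of 15 hairpins were on the array, and for 11 of these hairpins both strands were found on at least 10 arrays. In 10 of the 11 the unstarred or 5p strand had the more negative difference, and in 9 it did so on all 5 days. In all 11 the unstarred or 5p strand was also the brighter one in sham. The hairpins left out gave unstarred minus starred differences of 0.45 (miR-467d), 0.10 (miR-467b), -0.003 (miR-467a) and -0.86 (miR-669l). For miR-467d, miR-467b and miR-467a the starred probe was found on 20 arrays and the unstarred one on 0, 7 and 0. The parts of strand and brightness were not tested. The probes of miR-669a-5p/miR-669p and miR-669a-3p/miR-669o-3p each serve 2 of the 11 hairpins. The clearest comparison was hairpin miR-669c, both of whose probes were bright. miR-669c fell by 0.79 and miR-669c* differed by -0.22 ± 0.16 (adjusted p = 0.310), at mean sham signals of 9.66 and 9.13. miR-669c* gave 9.57, 9.23, 9.12, 8.67 and 9.06 in sham and 8.84, 9.24, 8.94, 9.01 and 8.51 in TAB. Those groups overlapped, with TAB lower on 3 days of 5. The first minus second strand difference was -0.57 ± 0.20 (SE over 5 days, with no test), and -0.59 without scaling.

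In hairpin miR-669f, miR-669f-5p fell by 0.97 and miR-669f-3p differed by -0.31 ± 0.15 (adjusted p = 0.144). In hairpin miR-669o the values were -1.01 and -0.35, the latter read on the shared probe of miR-669a-3p and miR-669o-3p. Hairpin miR-669d gave the widest gap among the 11, at -0.69 ± 0.15, although its starred probe was dim and found on 13 arrays, and it was -1.05 without scaling. The gaps of hairpins miR-669b and miR-669e also widened without scaling, from -0.62 to -0.96 and from -0.48 to -0.86. Hairpin miR-467e gave the narrowest of the 11, -0.15 ± 0.12. The exception among the 11 was hairpin miR-669h, whose 5p strand was at 0.40 and its 3p strand at -0.19. Both directions were open to the scaling as given above. The gap was 0.58 ± 0.15, or 0.22 without scaling.

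**Figure D4:**
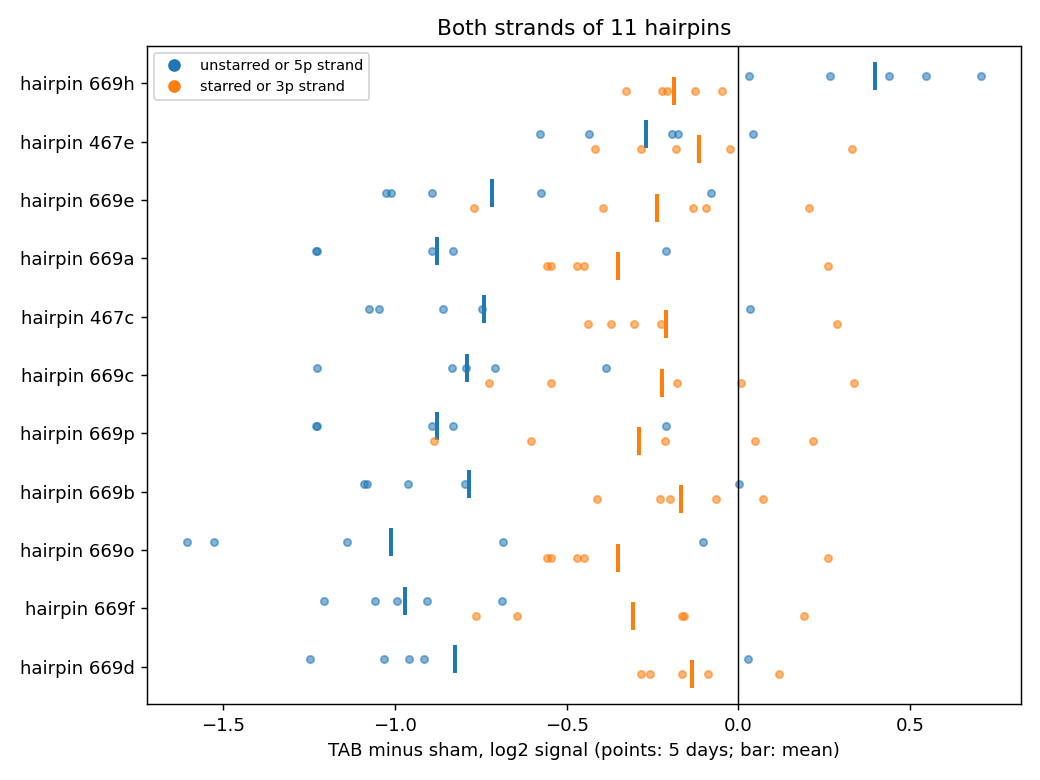
TAB minus sham difference in log2 signal (horizontal axis) for both strands of 11 hairpins, with 1 point for each of 5 days and a bar at their mean. Blue is the unstarred or 5p strand and orange the starred or 3p strand. In all hairpins but that of miR-669h the blue mean lies to the left.

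Among the members, brighter spots went with more negative differences. Across the 22 members found on all arrays, Pearson's r between mean signal and difference was -0.67, and over the 14 unstarred or 5p ones it was -0.57. These points share the same 20 arrays. Of the 7 members found on fewer than 10 arrays, 0 passed the test, and their differences ran from -0.10 to 0.13. Among all 188 mouse probes found on all arrays with mean log2 signals of 8 to 11, 69 were lowered and 47 raised, with a median of -0.16. The miR-466 and miR-297 families, some of whose genes also lie in the Sfmbt2 cluster, were compared as the nearest relatives, although RefSeq places miR-466j, miR-466k, miR-466q and miR-466i-3p on chromosomes 10, 3, 3 and 13. Of their 29 probes 19 were lowered and 0 raised, with a median of -0.57. Of 19 unstarred or 5p ones 16 were lowered, and of 10 starred or 3p ones 3. The difference between the 2 sets of families was not tested.

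On single days the test compared 1 TAB with 1 sham RNA sample, and its error covers only the spread between repeated arrays. On day 3, 25 members were lower (17.8% of all probes were), with a median of -0.60. On day 5 there were 16 (20.5%) with a median of -0.29, and on day 7 also 16 (16.2%), with a median of -0.24. Day 14 stood apart, with 3 members lower (14.3%), miR-669c, miR-669f-5p and miR-669l, and a median of 0.06. Day 28 had 21 (23.2%) and a median of -0.39. On each day 1 member passed the test upward (17.7%, 19.1%, 17.6%, 12.3% and 18.1% of all probes). This was miR-669h-5p on days 3, 7 and 28, by 0.44, 0.54 and 0.71. On days 5 and 14 it was miR-467d, a probe found on no array. Of the members, 2 (miR-669f-5p and miR-669l) were called lower on all 5 days, 10 on 4 days and 8 on none, against 3.66%, 6.57% and 62.0% of all probes.

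The most negative member was miR-669a-5p/miR-669p on day 3 (-1.23), miR-669o-5p on days 5 and 7 (-1.61 and -1.53), miR-669c on day 14 (-0.71) and miR-669k* on day 28 (-1.18). The highest was miR-669h-5p on 4 days and miR-467f on day 14 (0.35, adjusted p = 0.205). On day 3 the 5 lowest starred or 3p members after miR-669k*, picked for those values, were miR-669p*, miR-467d*, miR-669e*, miR-669f-3p and miR-669c*, at -0.89 to -0.73, and passed the test. On day 7 they differed by -0.36 to -0.13, and 0 of the 5 passed it, but on day 28 all 5 passed it again, at -0.64 to -0.39. Differences between days were not tested for them. By the fold rule of the study's methods, a log2 ratio beyond 2 standard deviations of all ratios of a day, 8, 7, 10, 1 and 4 members were lowered on days 3, 5, 7, 14 and 28 (3.99%, 2.48%, 3.34%, 2.48% and 1.51% of all probes) and 0 were raised (3.23%, 4.2%, 3.77%, 2.69% and 4.85%). The member past it on day 14 was miR-669c.

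**Figure D5:**
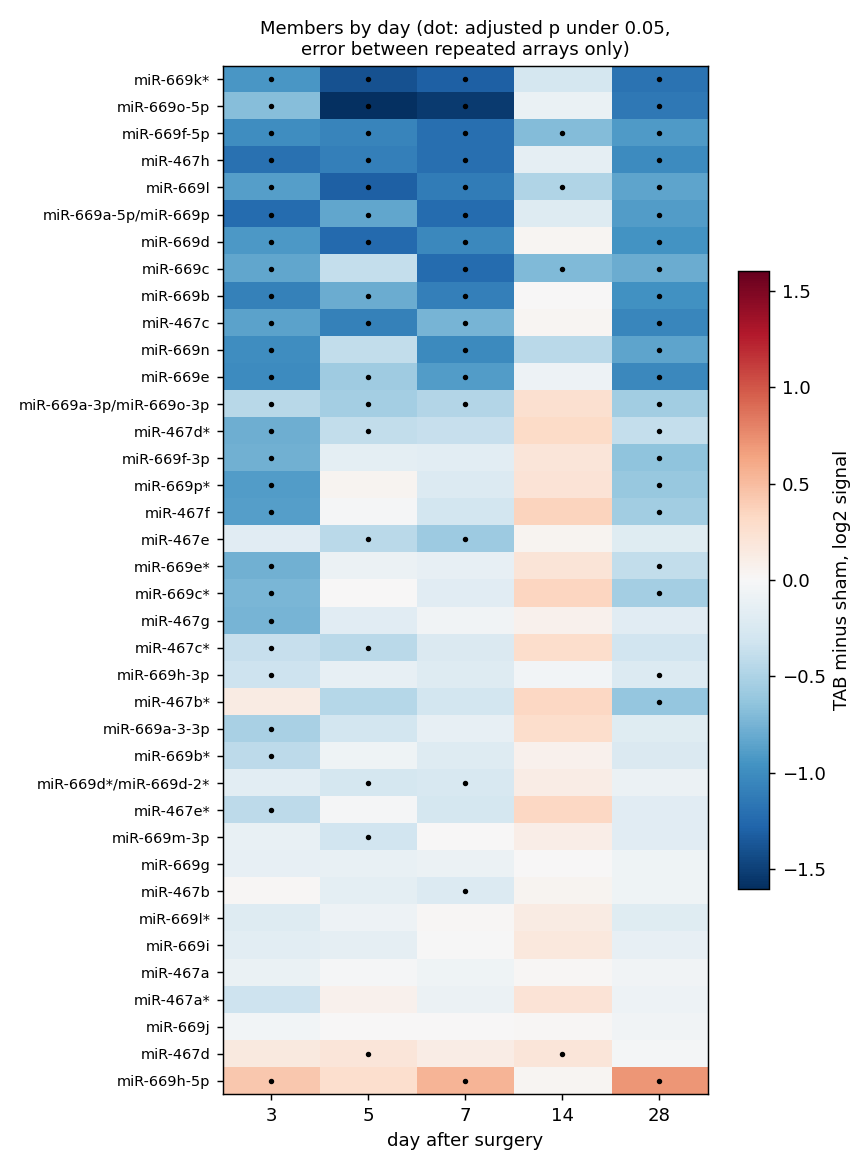
TAB minus sham difference in log2 signal (colour) of the 38 members (rows, ordered by the 5-day difference) on each day after surgery (columns). A dot marks an adjusted p under 0.05 on that day, with the error between repeated arrays only. The column of day 14 is paler than the others, with 3 members lower.

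Both samples of day 14 departed from those of other days. The sham sample of day 14 was the lowest of the 5 sham samples in 33 of 38 members (86.8%), against 30.6% of all probes. The TAB sample of day 14 was the highest of the 5 TAB samples in 15 members (39.5%), against 18.5% of all probes. For miR-467h the sham sample of day 14 was 0.63 below the mean of the other sham samples and the TAB sample 0.35 above that of the other TAB samples. The TAB arrays of day 14 were also the brightest TAB arrays, with raw 75th percentiles of 275 and 288 against 180.0 to 253 on the others. Members found on them were 31 and 31, against 24 to 28 on the other TAB arrays. On the sham arrays of day 14 they were 29 and 30, against 32 to 34 on the other sham arrays. The part that array brightness has in the day 14 values was not tested. With 1 sample for each surgery and day, the day and the sample cannot be told apart.

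Leaving out day 14 raised the number of lowered members from 13 to 21 and kept all 13, against 22.2% of all probes lowered without it. Leaving out any other day left 7 to 9 members, and 12.4% to 14.2% of all probes. miR-669k*, miR-669f-5p, miR-467h, miR-669l, miR-669a-5p/miR-669p, miR-669c and miR-669n passed the test in every such fit. The last comparison asked whether the difference changed from days 3, 5 and 7 to days 14 and 28. No member passed the test of late minus early difference (0 of 928 probes did, 0%), and at an unadjusted p under 0.05 there were 0 members, while 37 of all probes (3.99%) moved down and 21 (2.26%) up. The contrast was above 0 in 35 of 38 members, and in 21 without day 14, while 49.5% of all probes were above 0 in both fits. By p, the first members with a positive contrast were miR-669f-5p, at 0.29 ± 0.11, and miR-669d*/miR-669d-2*, at 0.25 ± 0.10, both with an adjusted p of 0.699. In the other direction they were miR-467d, which was found on no array, at -0.08 ± 0.10, and miR-669h-5p, at -0.05 ± 0.22, with adjusted p of 0.923 and 0.976.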

How the data were processed

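Arrays carried 3 spots for each of 1086 mouse probes. The authors deposited raw spot intensity and spot flags as the scanning software wrote them, and a processed table of intensity per probe, in which flagged probes were removed, spots combined by median and technical replicates quantile-normalized (GenePix, per the methods). All 20 arrays share a 75th percentile of 285.1 in that table. The build behind the array's annotation is not given in the sources used here.

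From the raw intensity, 158 mouse probes flagged negative on every spot of every array were removed, and 928 were kept. Spots were combined by median, taken to log2 without background subtraction or pseudocount, and quantile-normalized across the 20 arrays. The 2 arrays of a sample were averaged, and limma 3.58.1 in R 4.3.3 (lmFit, eBayes) was fitted over all 928 probes with surgery and day as terms, leaving 4 residual degrees of freedom, with Benjamini-Hochberg adjustment and a threshold of 0.05. Day contrasts were fitted on the 20 arrays. The methods give a fold rule and no test. p-values over the 5 days measure the spread between samples whose number of hearts is not stated.

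The members and lists were chosen with earlier results of these data known. The rule for members described in full took the 8 lowered and 4 raised called members that changed the same way on all 5 days and by most (1 raised member qualified), the 6 with the highest mean signal, the highest and lowest on each day, the 2 smallest p of the late minus early contrast in each direction, and hairpins with both strands found on at least 10 arrays. Alternatives were other scalings, the processed table, normexp with an offset of 50, other filters, no day term, arrays as samples, the replicate block and leaving out days or arrays. Scaling to spike-in controls was chosen after seeing the data. The number of arrays limits the precision. The script was tested on simulated data. Rat probes were not used here. Sequences and their coordinates came from RefSeq (GRCm38.p6).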

Additional observations from a re-analysis of the deposited data

Results flagged for a closer look

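The 5 samples of each surgery were searched, member by member, for 1 sample far from the other 4, and 5 of 76 such sets held one, where chance flags about 1 set in 20. In sham hearts 2 of these were low on day 14. There miR-669e had a log2 signal of 9.04, against 9.37 to 9.48 on the other days, and miR-669d 8.35, against 8.99 to 9.25. In TAB hearts miR-467a* stood high on day 5, at 7.27 against 6.89 to 6.94. The other 2 were miR-467a in sham on day 3, at 6.23 against 6.17 to 6.19, and miR-467d in sham on day 28, at 6.35 against 6.18 to 6.23, and both probes were found on no array.

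In 3 starred or 3p members both TAB arrays were above both sham arrays on day 14 and below both on each of the other 4 days. The day 14 differences were 0.26 log2 units for miR-669a-3p/miR-669o-3p, 0.31 for miR-467d* and 0.29 for miR-467c*. On the other days the first ran from -0.56 to -0.45, the second from -0.78 to -0.36 and the third from -0.44 to -0.23. The difference between days was not tested, since each surgery and day is 1 sample.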

How the results depend on the processing

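The 12 lowered members found on every array kept their direction in every alternative run. Of these, miR-669b, miR-669d, miR-669e, miR-669o-5p and miR-467c lost their call in fits that left out 1 day, and the other 7 lost none. Over the 5 days, 33 members were lowered and 0 raised without scaling (53.9% and 2.91% of all probes), 36 and 0 with a quantile target per surgery (68.3% and 3.99%), 12 and 11 with the 75th percentile (11.9% and 63.9%), 13 and 12 with the processed table (12.2% and 63.8%) and 12 and 0 with spike-in controls (9.27% and 10%). normexp gave 13 and 1 (22% and 19.4% of all probes) and no filter on flags also 13 and 1 (19.4% and 16.7%). The filter on found probes gave 12 and 1 (26.1% and 23.4%), and no day term 14 and 2 (24.9% and 23.5%). Leaving out a day or the arrays of a replicate gave 7 to 21 lowered (the most without day 14, the fewest without day 7) and 0 or 1 raised. In those fits 12.4% to 22.2% of all probes were lowered and 11.9% to 18.2% raised. As 20 separate arrays, 24 members were lowered and 2 raised (31.7% and 28.3% of all probes), and with the replicate number as a block also 24 and 2 (31.4% and 28%). The replicate numbers do not pair samples. Differences of replicate 1 and 2 correlated between groups by -0.28 to 0.42 (median 0.07).

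By direction, miR-669h-3p turned to 0.28 with the 75th percentile and the processed table and 0.13 with spike-in controls, and miR-669h-5p to -0.14 without scaling and -0.13 with a target per surgery. miR-669h-5p also lost its call without day 3, 5, 7 or 28 or without replicate 1. Among members that had not passed, miR-467g turned to 0.060 with the 75th percentile and 0.054 with the processed table, and miR-669d*/miR-669d-2* to 0.22, 0.21 and, with spike-in controls, 0.057. miR-467b turned to 0.36 with the 75th percentile and the processed table and to 0.20 with spike-in controls. miR-467d turned to -0.013 without scaling and -0.022 with a target per surgery.

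By day, in the order 3, 5, 7, 14 and 28, the raised count became 8, 11, 8, 9 and 3 with the 75th percentile and 11, 13, 13, 19 and 6 with the processed table. It was 0 on each day with a target per surgery, and without scaling 0 on each day but day 28, where it was 1. The lowered count was 36, 36, 33, 6 and 23 without scaling and 36, 33, 33, 15 and 37 with a target per surgery. Shares of all probes by day were not counted for these scalings. Over the 5 days, 63.9% of all probes were raised with the 75th percentile and 63.8% in the processed table. Without scaling 53.9% of all probes were lowered, and with a target per surgery 68.3%. The replicate block gave 26, 19, 16, 4 and 22 lowered and 1, 2, 1, 1 and 1 raised. Without 1 array of the day, 21 to 25, 12 to 16, 14 to 15, 1 to 4 and 16 to 17 were lowered, and 0 to 2, 0, 1, 0 to 1 and 1 raised. On day 14 the count of 1 came without TAB replicate 2 or sham replicate 1. By day, shares of all probes were not counted for the replicate block or without 1 array. The late minus early contrast called 0 members, by limma, in every fit that kept both late days. At an unadjusted p under 0.05 there were 20 members without scaling. There the contrast was above 0 in all 38 members and in 94.7% of all probes, whose share under that p was not counted. Leaving out day 28 left 1 late sample a surgery, and the median contrast was 0.54 over the members and -0.009 over all probes. Scaling was not settled by these data, 2 arrays a sample limit the day tests to technical error, and probes near the background limit what starred strands can show.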
